A study of Saccharomyces cerevisiae with 12 samples.

Results

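Transcript levels of 10 genes of phospholipid synthesis and its inositol regulon were followed in 2 wine strains of Saccharomyces cerevisiae. The genes were INO2, INO4, OPI1, INO1, ITR1, CHO1, PSD1, CHO2, OPI3 and CPT1. Each was represented by the probe set whose only gene symbol is that gene, which gave 10 probe sets among the 7349 that passed a filter on low signals, of 9275 yeast probe sets on the array. EC1118, sold as a commercial wine yeast, and M25, a wild-type isolate kept in a university collection, each fermented synthetic juice (SJ, 200 g/l glucose at pH 3.3) with or without added lipids. The supplemented juice (FSJ) held ergosterol at 15 mg/l, together with oleic acid at 15 mg/l. The 4 groups were EC1118 in FSJ, EC1118 in SJ, M25 in FSJ and M25 in SJ, with 3 biological replicates each and 1 one-colour Affymetrix array per culture. All cultures came from SJ precultures of 24 h and were harvested at 60 h, so the M25 and EC1118 cells had all been grown without added lipids beforehand. The temperature given for all of them was 28 °C. Each strain is a single isolate, and the growth stage each had reached at 60 h is not given in the sources used here.

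Yeast makes its membrane phospholipids from phosphatidic acid, either through CDP-diacylglycerol or, where choline or ethanolamine is at hand, through the Kennedy pathway. The activators Ino2 and Ino4 bind as a pair to an element shared by many genes of these routes, and Opi1 represses through Ino2. Opi1 is held at the endoplasmic reticulum by phosphatidic acid and moves to the nucleus when inositol is supplied and phosphatidic acid is consumed. Both juices share a yeast nitrogen base, a mixture that ordinarily contains inositol.

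The deposited values are MAS5 signals, linear intensities with 1 value per probe set and array. All 10 genes exceeded background on all 12 arrays, where background is the signal below which 25% of an array's yeast probe sets fell (16.6 to 21.7). Arrays had a common scale by their trimmed mean signals, which were 297.8 to 299.9. Median log2 signals of the probe sets that passed the filter were lower in M25 in FSJ. They were 6.90 to 6.92 there, against 7.07 to 7.17 on the other arrays. Log2 correlations between replicates ran from 0.919 to 0.986, the lowest of them within EC1118 in FSJ. Differences were tested with limma on log2 signals and adjusted by Benjamini-Hochberg over all probe sets that passed the filter, and "called" means an adjusted p under 0.05. Signals of different genes come from different probes and were not set against each other.

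The gene of the repressor, OPI1, rose with lipids, and the genes of the activators, INO2 and INO4, were not called. OPI1 read 461.5, 436.5 and 403.7 in EC1118 in FSJ, against 360.0, 308.0 and 326.6 in EC1118 in SJ. It read 602.3, 712.7 and 530.6 in M25 in FSJ, against 443.1, 397.3 and 424.4 in M25 in SJ. In each strain every FSJ array lay above every SJ array. Averaged over the strains OPI1 was 1.38-fold higher in FSJ (log2 0.46, SE 0.093, 95% interval 0.26 to 0.67, limma adjusted p = 0.00949). INO2, one partner of the activator pair, read 174.5, 220.2 and 235.6 in EC1118 in FSJ, against 144.3, 150.0 and 149.7 in EC1118 in SJ. It read 84.3, 183.1 and 140.9 in M25 in FSJ, against 222.5, 207.2 and 159.0 in M25 in SJ. The FSJ arrays of EC1118 lay above its SJ arrays, whereas those of M25 overlapped with its SJ arrays and 2 of the 3 lay below all of them. The averaged log2 difference of INO2 was -0.045 (95% interval -0.43 to 0.34, limma adjusted p = 0.905). INO4, the other partner, had low signals with wide spread, from 35.9 to 89.7 over the 12 arrays, and all 4 groups overlapped. Its averaged log2 difference was 0.044 (95% interval -0.44 to 0.53).

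**Figure D1:**
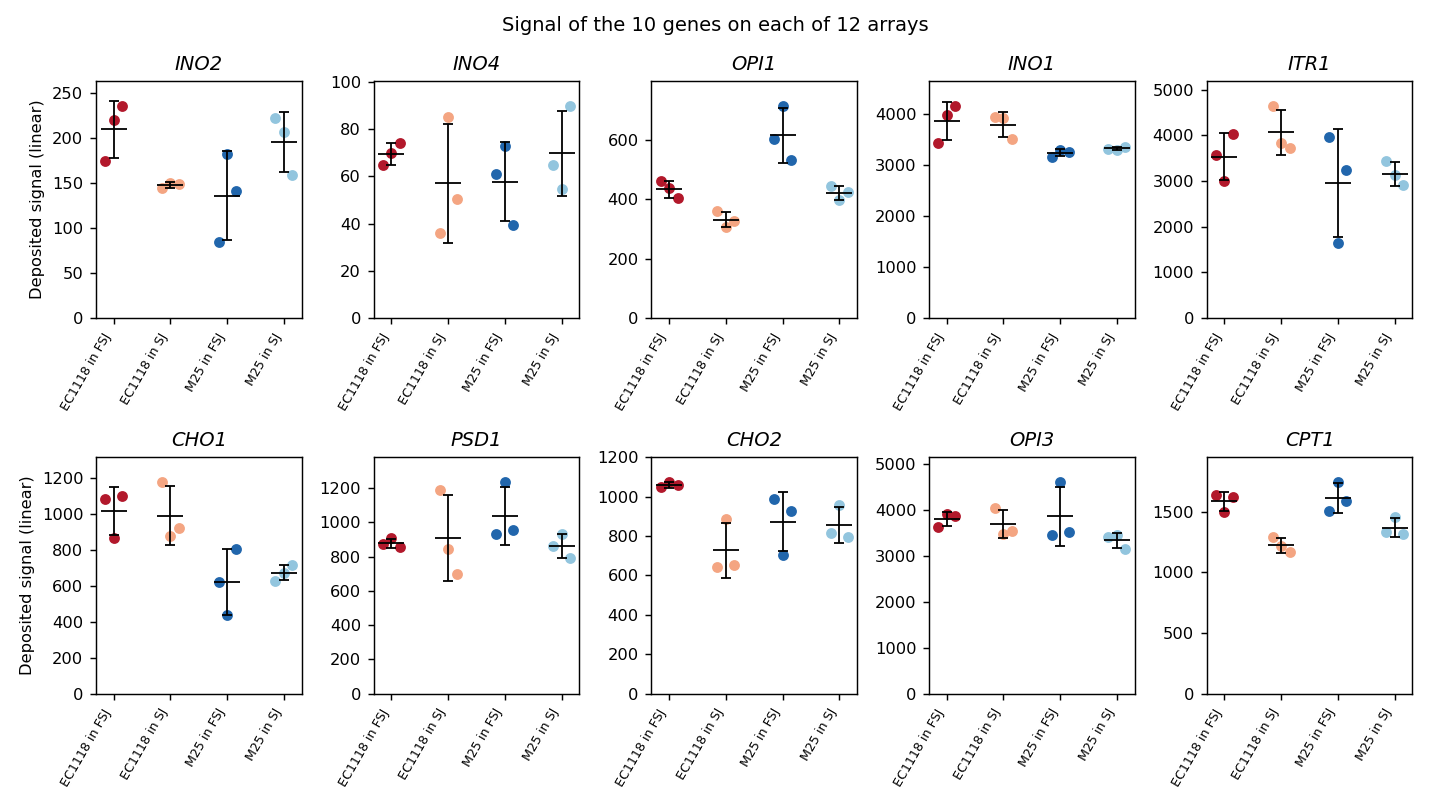
Deposited signal (linear scale, vertical axis from 0) of the 10 genes on each of 12 arrays, with points for arrays, a long bar for the group mean and whiskers for the SD (n = 3). OPI1 and CPT1 lie higher in FSJ than in SJ in both strains, and CHO1 lies higher in EC1118 than in M25 in both media.

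The genes that supply inositol showed no called change with lipids. INO1 encodes inositol-3-phosphate synthase, the first step of inositol synthesis and the classical target of Ino2 and Ino4. It read 3428.7, 3976.3 and 4142.7 in EC1118 in FSJ, against 3942.9, 3909.2 and 3506.4 in EC1118 in SJ. It read 3159.2, 3293.0 and 3252.5 in M25 in FSJ, against 3314.3, 3296.8 and 3355.7 in M25 in SJ. The EC1118 groups overlapped, and the M25 groups lay within a narrow band in which each FSJ array was below each SJ array. The averaged log2 difference of INO1 was -0.0087 with a 95% interval of -0.14 to 0.12 (limma adjusted p = 0.948), the narrowest interval among the 10 genes. ITR1, the main inositol transporter of the plasma membrane, read 3569.8, 3001.5 and 4032.9 in EC1118 in FSJ, against 4633.3, 3838.7 and 3721.5 in EC1118 in SJ. It read 3962.9, 1651.8 and 3252.1 in M25 in FSJ, against 3437.4, 3121.3 and 2923.2 in M25 in SJ. Each group overlapped with the next in level, and replicate 2 of M25 in FSJ was the lowest of the 12. The averaged log2 difference of ITR1 was -0.20 (95% interval -0.58 to 0.19, limma adjusted p = 0.538).

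Along the CDP-diacylglycerol route, none of the 4 genes was called for lipids. CHO1, phosphatidylserine synthase, read 1084.5, 862.7 and 1096.2 in EC1118 in FSJ, against 1175.5, 874.3 and 920.5 in EC1118 in SJ. It read 618.2, 439.9 and 802.9 in M25 in FSJ, against 628.7, 672.8 and 712.9 in M25 in SJ. The media overlapped in both strains, and the averaged log2 difference of CHO1 was -0.058 (95% interval -0.37 to 0.25). PSD1, the mitochondrial phosphatidylserine decarboxylase, averaged 879.5 ± 26.3 in EC1118 in FSJ, 909 ± 251 in EC1118 in SJ, 1040.2 ± 169 in M25 in FSJ and 863 ± 70.2 in M25 in SJ (SD, n = 3 each). Each of its groups overlapped with the next in level, with an averaged log2 difference of 0.12 (95% interval -0.15 to 0.40). CHO2, the methyltransferase that starts the conversion of phosphatidylethanolamine to phosphatidylcholine, read 1046.1, 1073.0 and 1056.6 in EC1118 in FSJ, against 643.8, 886.8 and 651.7 in EC1118 in SJ. It read 985.8, 702.6 and 926.4 in M25 in FSJ, against 815.4, 959.4 and 793.2 in M25 in SJ. The EC1118 arrays in FSJ were tight and above every other array, while the other 3 groups overlapped. CHO2 had an averaged log2 difference of 0.29 (95% interval 0.043 to 0.53, unadjusted p = 0.0251, adjusted p = 0.14 in limma). OPI3, which completes that methylation, averaged 3795 ± 152 in EC1118 in FSJ, 3683 ± 301 in EC1118 in SJ, 3856 ± 643 in M25 in FSJ and 3331 ± 171 in M25 in SJ (SD, n = 3 each). All 3 M25 arrays in FSJ lay above those in SJ, and the averaged log2 difference of OPI3 was 0.12 (95% interval -0.048 to 0.29, limma adjusted p = 0.37).

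CPT1, the cholinephosphotransferase that ends the choline branch of the Kennedy pathway, rose with lipids. It read 1636.9, 1495.0 and 1624.6 in EC1118 in FSJ, against 1291.3, 1215.4 and 1165.0 in EC1118 in SJ. It read 1508.0, 1745.2 and 1589.4 in M25 in FSJ, against 1334.2, 1461.5 and 1316.1 in M25 in SJ. In both strains every FSJ array lay above every SJ array. The averaged rise of CPT1 was 1.23-fold (log2 0.30, SE 0.067, 95% interval 0.16 to 0.45, limma adjusted p = 0.0153). EPT1, its close relative that ends the ethanolamine branch, had an averaged log2 difference of 0.0069 (95% interval -0.25 to 0.26) and was not called.

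Counted together, 2 of the 10 genes were called higher in FSJ and 0 lower, where 4.03% of all probe sets were called higher and 5.06% lower. The 10 genes were chosen with earlier results of these data known, so the count is not an independent test against that share. At an unadjusted p under 0.05 the count was 3, all higher. The share of all probe sets under that p was not counted, so this count cannot be set against one. The median log2 difference was 0.083 over the 10 genes and -0.012 over all probe sets. OPI1 and CPT1 were called under every one of the 23 alternative settings tried, with log2 values of 0.40 to 0.53 for OPI1 and 0.28 to 0.37 for CPT1. The setting with only the compared groups repeats the main fit for this contrast, which uses all groups, and adds no support.

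**Figure D2:**
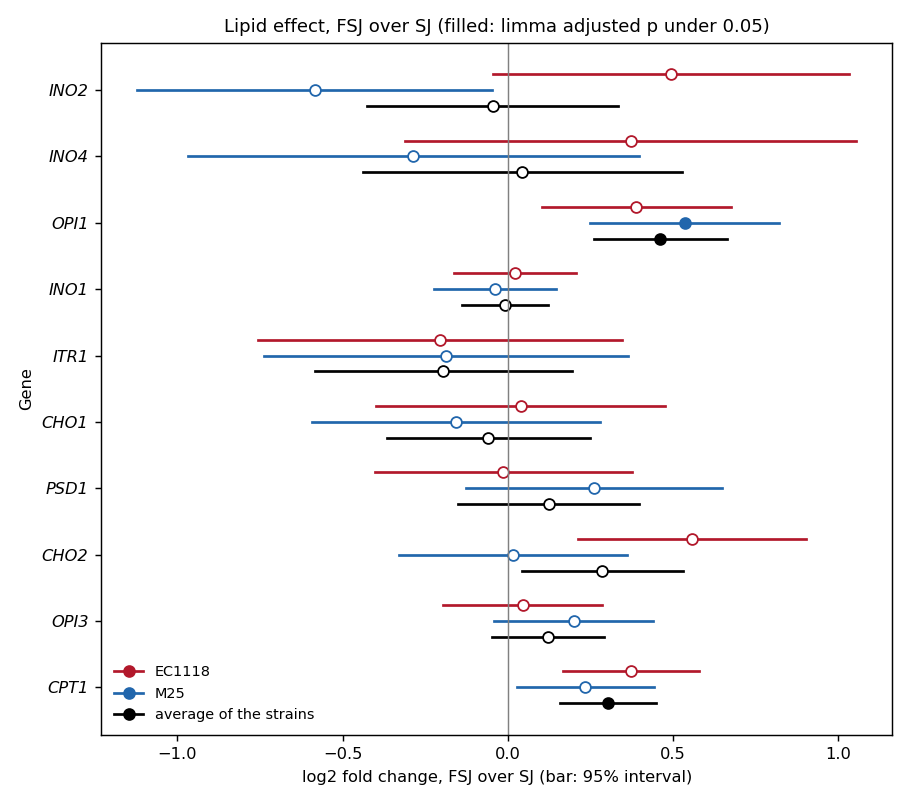
Log2 fold change of FSJ over SJ for the 10 genes (horizontal axis), in EC1118, in M25 and averaged over the strains, with 95% intervals from limma; filled points are called. Only the averaged OPI1 and CPT1 and the M25 value of OPI1 are filled.

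Within single strains fewer genes passed. In EC1118, 0 of the 10 genes were called, where 0.667% of all probe sets were called higher and 1.18% lower. An unadjusted p under 0.05 was reached by 3 of them, all higher in FSJ, with no array-wide share counted. These were CHO2 (log2 0.56, 95% interval 0.21 to 0.90, limma adjusted p = 0.116), OPI1 (log2 0.39, adjusted p = 0.184) and CPT1 (log2 0.37, adjusted p = 0.0765). Arrays of the media did not overlap for 4 genes, INO2, OPI1, CHO2 and CPT1, all higher in FSJ, where 12.3% of all probe sets separated upward and 6.25% downward. CPT1 in EC1118 was called with quantile normalization (adjusted p = 0.0428) and without the filter on low signals (adjusted p = 0.0457). In M25, 1 of the 10 genes was called higher, OPI1 (1.45-fold, log2 0.54, SE 0.13, limma adjusted p = 0.0271), where 2.84% of all probe sets were called higher and 5.91% lower. That call was lost without any 1 of the 3 M25 arrays in SJ (adjusted p = 0.0628, 0.101 and 0.0812) and without replicate 1 or 2 of M25 in FSJ (adjusted p = 0.0646 and 0.0886). With arrays centred on their median, CPT1 (adjusted p = 0.0144) and OPI3 (adjusted p = 0.0395) were also called higher in M25 in FSJ. Arrays of the media did not overlap for OPI1, OPI3 and CPT1, higher in FSJ, and for INO1, lower in FSJ, where 11.8% of all probe sets separated upward and 22.9% downward. An unadjusted p under 0.05 in M25 was reached by 3 of the 10 genes, OPI1, CPT1 and INO2, with no array-wide share counted. CPT1 in M25 had a log2 difference of 0.23 (unadjusted p = 0.0292, adjusted p = 0.145 in limma). INO2 in M25 had a log2 difference of -0.58 (unadjusted p = 0.0357, adjusted p = 0.161 in limma).

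Whether the response to lipids differed between the strains was tested as an interaction, the FSJ effect in EC1118 minus that in M25. For this, 0 of the 10 genes were called, where 0.150% of all probe sets were called higher and 0.0544% lower. The count at an unadjusted limma p under 0.05 was 2, with no array-wide share counted. INO2 had the largest difference of effects among the 10 genes (log2 1.08, SE 0.35, 95% interval 0.32 to 1.84, unadjusted p = 0.00947, adjusted p = 0.227). The other was CHO2, with log2 0.54 (unadjusted p = 0.0326, adjusted p = 0.291). INO4 had a larger difference of effects than CHO2 but a wider interval (log2 0.66, 95% interval -0.31 to 1.63). No other gene among the 10 reached an unadjusted p under 0.05, and their intervals included 0.

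EC1118 and M25 were also compared with each other in the same medium. Because the array was designed on another strain, a difference in transcript level and a difference in how well the probes match each strain's sequence cannot be told apart. In FSJ, 3 of the 10 genes were called higher in EC1118 and 1 lower, where 22.7% of all probe sets were called higher and 12.4% lower. CHO1 was 1.67-fold higher in EC1118 (log2 0.74, SE 0.20, limma adjusted p = 0.0131), INO2 1.61-fold higher (log2 0.69, adjusted p = 0.0483) and INO1 1.19-fold higher (log2 0.25, adjusted p = 0.0402). OPI1 was 1.41-fold lower in EC1118 (log2 -0.50, adjusted p = 0.0123). Arrays of the strains did not overlap in FSJ for INO1, CHO1 and CHO2, higher in EC1118, and for OPI1 and PSD1, lower, where 28.2% of all probe sets separated upward and 16.6% downward. The INO2 arrays overlapped. The INO2 call was lost under 15 of the 23 alternatives. Of the fits that left out 1 array, it held only without replicate 2 of M25 in FSJ or replicate 1 of EC1118 in FSJ, and in the other 10 its adjusted p was 0.0523 to 0.175. The INO1 call was lost under 14, and of the fits with 1 array left out it held without replicate 1 or 3 of EC1118 in SJ or replicate 1 of EC1118 in FSJ, with adjusted p of 0.0507 to 0.129 in the other 9. With arrays centred on their median the log2 difference of INO1 was 0.0057 (adjusted p = 0.965) and that of CHO1 was 0.50 (adjusted p = 0.075), and CPT1 was called lower (log2 -0.27, adjusted p = 0.048). With only the compared groups in the fit, CHO1 (adjusted p = 0.0526) and OPI1 (adjusted p = 0.0573) were not called.

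In SJ, 0 of the 10 genes were called between the strains, where 9.46% of all probe sets were called higher in EC1118 and 10.3% lower. Arrays of the strains did not overlap for INO1, ITR1, CHO1 and OPI3, higher in EC1118, and for INO2, OPI1 and CPT1, lower, where 19.2% of all probe sets separated upward and 22.7% downward. An unadjusted limma p under 0.05 was reached by 3, with no array-wide share counted. CHO1 had log2 0.55 (adjusted p = 0.0762), INO1 log2 0.19 (adjusted p = 0.152) and OPI1 log2 -0.35 (adjusted p = 0.0867). Each had the same sign as in FSJ. CHO1 was called in SJ with only the compared groups in the fit (adjusted p = 0.018) and without replicate 2 (0.0284) or 3 (0.041) of M25 in FSJ, and ITR1 with only the compared groups (0.04). A contrast averaged over both media was therefore added after the data were seen. It reuses the same arrays, so its calls are not separate support for these genes. In it CHO1 was 1.57-fold higher in EC1118 (log2 0.65, SE 0.14, 95% interval 0.34 to 0.96, limma adjusted p = 0.00329) and INO1 1.16-fold higher (log2 0.22, SE 0.060, adjusted p = 0.0127). OPI1 was 1.34-fold lower (log2 -0.42, SE 0.093, adjusted p = 0.00344). These made 2 genes higher and 1 lower, where 22.3% of all probe sets were called higher and 17.0% lower. CHO1 and OPI1 were called under all 23 alternatives, with log2 values of 0.53 to 0.75 and of -0.54 to -0.37. The alternative with only the compared groups repeats the main fit for this contrast and adds no support. INO1 lost its call with arrays centred on their median (log2 0.10, limma adjusted p = 0.212). With that centring CPT1 was called lower in EC1118 over both media (adjusted p = 0.0255), and ITR1 was called higher without replicate 1 of M25 in FSJ (adjusted p = 0.0368).

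**Figure D3:**
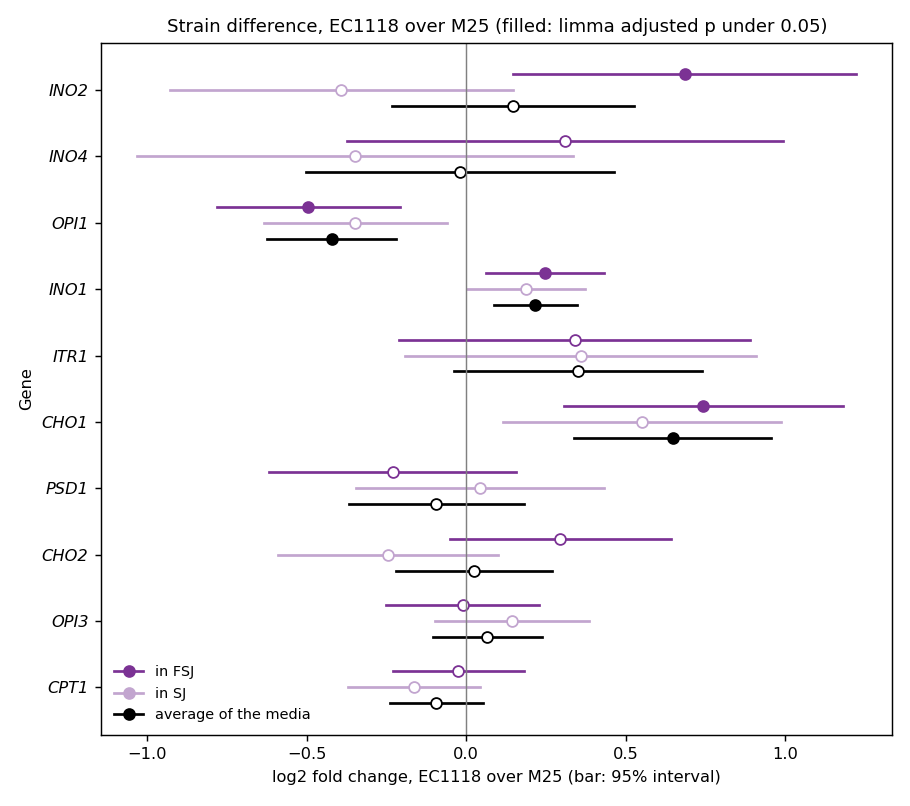
Log2 fold change of EC1118 over M25 for the 10 genes (horizontal axis), in FSJ, in SJ and averaged over the media, with 95% intervals from limma; filled points are called. CHO1 and INO1 lie above 0 and OPI1 below 0 in both media.

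In order of mean level, OPI1 was highest in M25 in FSJ, then overlapped between EC1118 in FSJ and M25 in SJ, and was lowest in EC1118 in SJ. CHO1 separated by strain, with both EC1118 groups above both M25 groups and the media overlapping within each. INO1 did the same, although M25 in SJ also lay just above M25 in FSJ without overlap. CPT1 separated by medium, with the FSJ groups overlapping and above M25 in SJ, which lay above EC1118 in SJ. INO4, ITR1 and PSD1 had no neighbouring groups that separated.

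Replicate 2 of M25 in FSJ stood apart for these genes. Among the 12 arrays it was the highest for OPI1, PSD1, OPI3 and CPT1 and the lowest for ITR1 and CHO1. On it 8 of the 10 genes lay more than 0.3 on the log2 scale from the mean of the group's other arrays, against 38.0% of all probe sets. ITR1 departed by -1.12, CHO1 by -0.68 and INO2 by 0.75. The signal ratio of 3′ to 5′ control probe sets for the gene of TATA-binding protein was 5.64 on this array, against 1.28 to 2.87 on the other 11, while that for ACT1 was 1.21, against 1.41 to 1.62. The part of RNA quality in these departures was not tested. Without this array and replicate 2 of EC1118 in FSJ, the averaged lipid calls of OPI1 and CPT1 stood, and the OPI1 difference between strains in FSJ was -0.39 on the log2 scale (limma adjusted p = 0.0738).

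**Figure D4:**
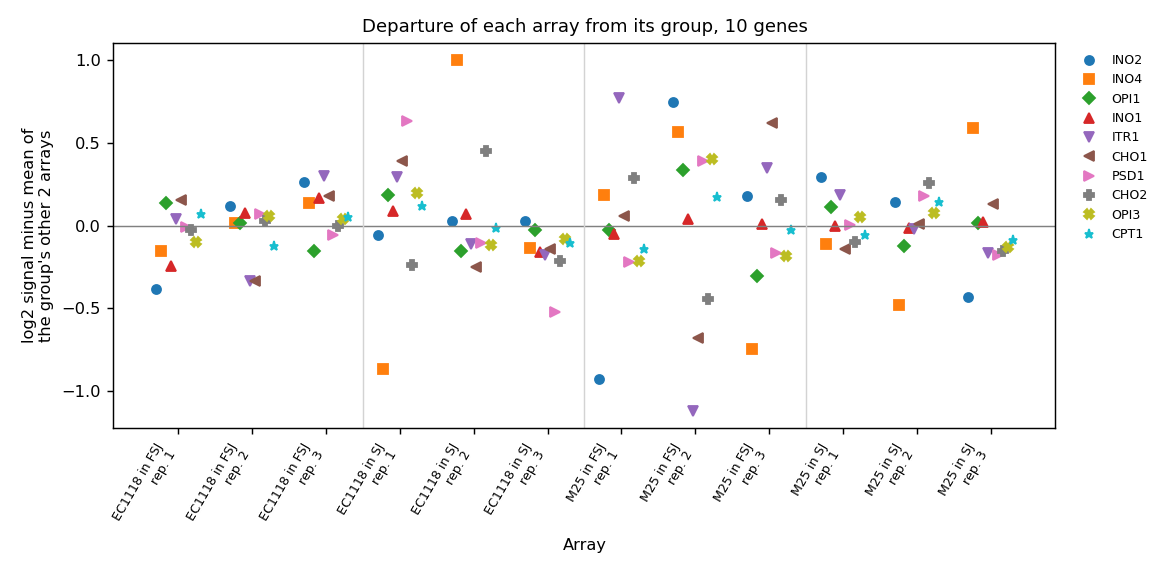
Departure of each of the 12 arrays from the mean log2 signal of its group's other arrays (vertical axis), 1 symbol per gene. The widest vertical spread of symbols is on replicate 2 of M25 in FSJ, where ITR1 lies at -1.12.

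A further 42 genes of phospholipid metabolism, all of which passed the filter, were read in the same fit. Where several probe sets of a gene passed, the probe set with the highest mean signal stood for it. Averaged over the strains, 1 of the 42 was called higher in FSJ and 1 lower, where 4.03% of all probe sets were called higher and 5.06% lower, so the counts were no larger than the array-wide shares give. The median log2 difference was -0.098 over the 42 genes and -0.012 over all probe sets, and 9 of the 42 values were positive. Whether the 42 as a set differed from all probe sets was not tested. FAS2 was not called by the probe set that stood for it (log2 0.17, adjusted p = 0.483 in limma). Some of its other probe sets were called lower (log2 -0.58, -0.52 and -0.30, adjusted p = 0.0464, 0.0349 and 0.0256 in limma), and the rest were not called. GIT1, a permease that takes up glycerophosphoinositol, read 637.3, 676.9 and 634.7 in EC1118 in FSJ, against 265.1, 263.8 and 279.6 in EC1118 in SJ. It read 100.4, 96.8 and 85.0 in M25 in FSJ, against 50.3, 46.5 and 35.6 in M25 in SJ. None of its 4 groups overlapped, and the averaged rise of GIT1 in FSJ was 2.28-fold (log2 1.19, SE 0.10, limma adjusted p = 2.32e-05). GPC1, an acyltransferase that rebuilds phosphatidylcholine from glycerophosphocholine, was lower in FSJ (log2 -0.86, SE 0.14, adjusted p = 0.00217). It averaged 466 ± 105 in EC1118 in FSJ, against 750.2 ± 164 in EC1118 in SJ, and 304.6 ± 37.2 in M25 in FSJ, against 620.5 ± 54.3 in M25 in SJ (SD, n = 3 each). In M25 alone 1 of the 42 was called higher, GIT1, and 4 lower, among them PLB2, a phospholipase B (log2 -0.55, adjusted p = 0.00657), where 2.84% of all probe sets were called higher and 5.91% lower. TAZ1, which remodels the acyl chains of cardiolipin, was also called lower there (log2 -0.92, limma adjusted p = 0.0209), but this call was lost under 5 of the 23 alternatives. Among them were the fits without M25 in SJ replicate 1 (0.069) or 2 (0.0857) or M25 in FSJ replicate 1 (0.056). FAS1 and HAC1, not called in M25 by the probe sets that stood for them, each had another called lower there (log2 -0.60 and -0.55, limma adjusted p = 0.0321 and 0.0278). In EC1118 GIT1 alone was called, and for the interaction 0 of the 42 were called in limma. At an unadjusted limma p under 0.05 the interaction count was 4, with no array-wide share counted.

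Between the strains, 7 of the 42 were called higher in EC1118 and 1 lower in FSJ, and 5 higher and 1 lower in SJ. Of all probe sets, 22.7% were called higher and 12.4% lower in FSJ, and 9.46% higher and 10.3% lower in SJ. These counts leave out further probe sets of a gene. Of those, some of FAS2 were called lower in EC1118 in FSJ (log2 -0.33 and -0.49) and in SJ (log2 -0.43 and -0.57). Others were called higher in EC1118 in FSJ, for HAC1 (log2 1.00 and 0.61) and FAS1 (log2 0.67). The remaining probe sets of these genes were not called in either medium. GIT1 was 6.92-fold higher in EC1118 in FSJ (limma adjusted p = 1.18e-07) and 6.17-fold higher in SJ. PLB2 averaged 1735 ± 178 in EC1118 in FSJ, against 473.6 ± 20.4 in M25 in FSJ, and 1585 ± 27.8 in EC1118 in SJ, against 692 ± 12.6 in M25 in SJ (SD, n = 3 each). CKI1, the choline kinase that opens the branch that CPT1 ends, was higher in EC1118 in FSJ (log2 0.86, adjusted p = 0.00105) and in SJ (log2 0.80). CLD1, a cardiolipin phospholipase, was not above background on any of the 3 arrays of EC1118 in FSJ. With those signals raised to background, CLD1 was at least 3.30-fold lower there than in M25 in FSJ. The measured signals, from which limma took its test, gave log2 -1.93 (adjusted p = 0.000912). UME6, a regulator of meiotic genes that also acts on phospholipid genes, was higher in EC1118 in FSJ (log2 1.13, adjusted p = 0.00438), a call kept under all 23 alternatives. It was also higher in EC1118 in SJ (log2 0.93, adjusted p = 0.0207), but not without EC1118 in SJ replicate 1 (0.0633) or 3 (0.071).

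**Figure D5:**
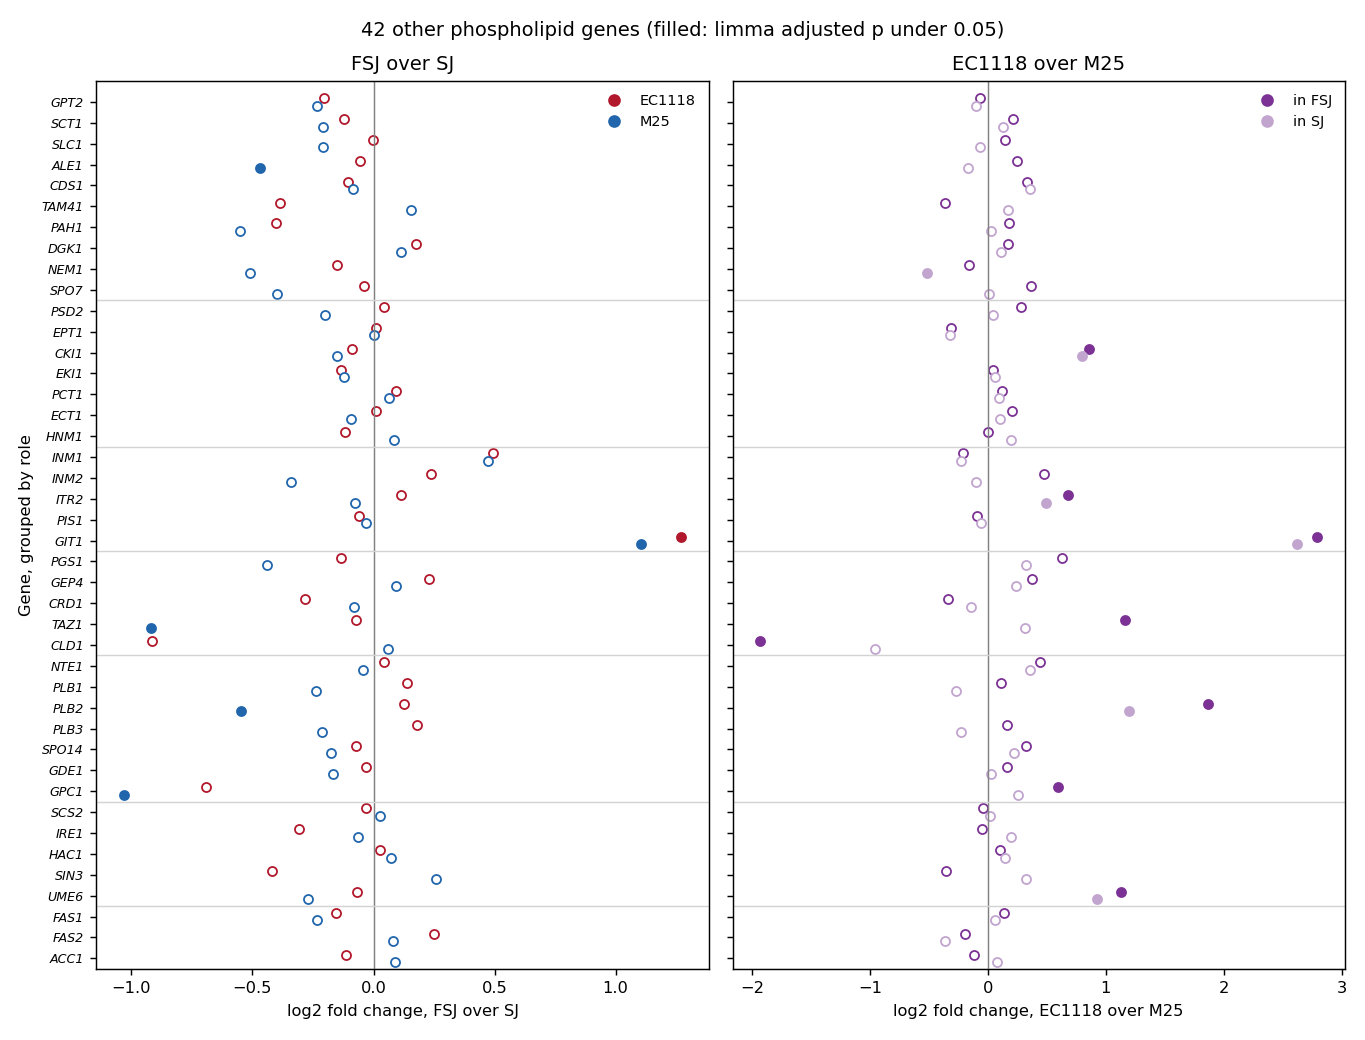
Log2 fold changes (horizontal axes) of 42 other phospholipid genes, grouped by role, for FSJ over SJ within each strain (left) and for EC1118 over M25 within each medium (right); filled points are called by limma. GIT1 lies farthest to the right in both panels, and most other points on the left are open.

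Across the 12 arrays, which share 4 groups and are not independent conditions, the genes whose log2 signal ran most like OPI1 were STB4 (Pearson r = 0.961), YDR341C (0.954), YNCD0006W (0.945, a probe set marked as shared within a family), MET32 (0.941) and IES5 (0.941). Those most like INO1 were TDH1 (0.959), EAF3 (0.942), REV1 (0.937), SEC39 (0.927) and JJJ1 (0.918). Among the 10 genes themselves, OPI1 ran most closely with CPT1 (r = 0.78) and ITR1 with CHO1 (r = 0.76), while OPI1 and CHO1 ran in opposite directions (r = -0.67). Replicate 2 of M25 in FSJ, the array that stood apart, was the highest for OPI1 and CPT1 and the lowest for ITR1 and CHO1. Its part in these correlations was not tested.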

How the data were processed

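RNA from 12 cultures, 3 per group, was hybridised to 1 array each. The deposited files hold intensity, linear and without log, and MAS5 is the tool that the submitters' processing notes name. No version or scaling target of MAS5 was given. Arrays were not rescaled. From 9335 probe sets 60 controls were removed, and those above the 25th percentile of at least 3 arrays stayed in. Signals under 1 were set to 1 before log2. A model of 4 group means over the 12 arrays was fitted in limma 3.58.1 (R 4.3.3), with an intensity trend in eBayes, and p-values were adjusted over 7349 probe sets at a threshold of 0.05. The fit was tested on simulated data.

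The 10 genes and the lists were chosen with earlier results of these data known. All 10 are named. Of 42 other pathway genes, up to 4 called per contrast with the smallest adjusted p are named. EPT1 was added as the relative of CPT1. The 5 genes most correlated with OPI1 and with INO1 are named. Alternatives covered scaling, low signals, the filter, the variance model, the replicate block and omission of arrays. Probe symbols came from the platform annotation. Promoter sequences were not analysed here. The number of arrays limits the precision.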

Additional observations from a re-analysis of the deposited data

How the results depend on the processing

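The number of the 10 genes called for the averaged lipid effect was 2 and for the interaction 0 under all 23 alternatives. For both contrasts the alternative with only the compared groups is the main fit again. For lipids in EC1118 it was 1 with quantile normalization and 1 without the filter, against 0. For lipids in M25 it was 3 with arrays centred, 0 without both FSJ replicates numbered 2 and 0 to 1 with 1 array left out, against 1. For the strains in FSJ it was 2 with arrays centred, as 0 higher and 2 lower in EC1118, against 3 higher and 1 lower without centring. It was 3 with quantile normalization, 3 without the filter, 2 without the intensity trend and 0 with only the compared groups. Without both replicates numbered 2 it was 2, and with 1 array left out it was 2 to 4, against 4. For the strains in SJ it was 2 with only the compared groups, 1 without both replicates numbered 2 and 0 to 1 with 1 array left out, against 0. Leaving out both replicates numbered 2 was chosen after seeing the data. Same-numbered replicates had r of -0.16 to 0.14 over 12 pairs, and in 6 of these the best match was the same number. Whether replicates of the same number shared a batch cannot be told from these values. With a replicate block the genes called were 2 for lipids averaged, 1 for lipids in M25 and 0 for lipids in EC1118. They were 0 for the interaction, 3 for the strains in FSJ and 0 for the strains in SJ. Scaling moved the split of all called probe sets: in M25 209 were higher and 434 lower in FSJ, against 633 and 240 with arrays centred, and between strains in FSJ 1665 were higher and 914 lower in EC1118, against 942 and 1595. The median of all log2 differences in M25 was -0.092, 0.095 with arrays centred, and between strains in FSJ 0.13 and -0.11. In EC1118 136 probe sets were called, against 48 with only the compared groups.

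Log2 values that changed sign were not called on either side, and the cause was not tested. With arrays centred the averaged lipid effect was 0.018 for INO2, 0.055 for INO1, 0.0052 for CHO1 and 0.048 for HNM1, the M25 effect 0.15 for INO1, 0.0011 for ITR1 and 0.032 for CHO1, the EC1118 effect -0.039 for INO1, -0.022 for CHO1 and -0.015 for OPI3, the interaction -0.19 for INO1, -0.054 for CHO1 and -0.11 for CPT1, and the strain difference over media -0.092 for CHO2 and -0.051 for OPI3. With quantile normalization INO2 averaged 0.020, the ITR1 interaction was 0.094, and the strain difference in FSJ was 0.13 for OPI3 and 0.066 for CPT1. With all its probe sets averaged, FAS2 had an averaged lipid effect of -0.25. Without both replicates numbered 2 the averaged effect was -0.054 for INO4, 0.047 for ITR1, 0.11 for CHO1, -0.028 for PCT1 and 0.082 for HNM1, the M25 effect 0.19 for ITR1 and 0.071 for CHO1, the EC1118 effect -0.0046 for INO1, the strain difference in FSJ 0.10 for OPI3 and 0.075 for CPT1, and that over media 0.073 for INO4 and -0.054 for CHO2. With 1 array left out the averaged effect ran from -0.17 to 0.11 for INO2, -0.10 to 0.21 for INO4, -0.036 to 0.032 for INO1, -0.16 to 0.055 for CHO1, -0.076 to 0.077 for EPT1 and -0.085 to 0.039 for HNM1. The M25 effect ran from -0.36 to 0.071 for CHO1, -0.080 to 0.16 for CHO2 and -0.44 to 0.19 for ITR1, and the EC1118 effect from -0.045 to 0.17 for CHO1, -0.034 to 0.10 for INO1 and -0.19 to 0.20 for PSD1. The interaction ran from -0.032 to 0.40 for CHO1 and -0.39 to 0.24 for ITR1. The strain difference in FSJ ran from -0.072 to 0.033 for CPT1, -0.033 to 0.60 for ITR1 and -0.083 to 0.12 for OPI3, that in SJ from -0.17 to 0.22 for PSD1, and that over media from -0.051 to 0.073 for CHO2, -0.0084 to 0.27 for INO2 and -0.19 to 0.12 for INO4.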
